A study of Homo sapiens with 31 samples.

Results

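CircRNAs of untreated H9 cultures at day 45 and at day 90 of differentiation towards retina were compared, to see which host genes and exon structures changed during later retinal differentiation. The comparison rests on 6 of the 31 samples of the series, 3 untreated libraries at each day, chosen by time point and treatment alone. H9 is an established line of human embryonic stem cells, all cultures came from this line, and each was plated in triplicate and differentiated in suspension without physical selection of the embryoid bodies. The untreated cultures received no recombinant human IGF-1, a growth factor that was added to a parallel set of 3 cultures at each day, and those 6 libraries are used here as a second series. The study describes optic cups by day 45 and laminated retina with photoreceptors, ganglion cells and progenitors by day 90, whereas the series description names retinal pigment epithelium as the target.

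A circRNA forms when the end of an exon (the donor) is joined back to the start of the same or an upstream exon (the acceptor) of the same transcript, and the read across that joint is a back-splice read. CircRNAs lack free ends and are stable, and many of the best known ones come from genes of the nervous system. In the retina, photoreceptors are born after the ganglion cells and mature late, when they build the light-sensing outer segment and its cilium, the surrounding matrix and a ribbon synapse. CircRNAs are written here as circRAPGEF5:E6-E2, with the donor exon before the acceptor exon, and exons are numbered in the transcript after which the authors named the circRNA.

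The 3 day 45 libraries held 108946, 89778 and 89266 back-splice reads and the 3 day 90 libraries 42858, 74180 and 93433, a range that overlapped (two-sided exact permutation test, p = 0.3, where 0.1 is the smallest p that 3 against 3 allows). RNA integrity numbers, given per day and not per library, were 7.6 to 9.1 at day 45 and 7.1 to 8.9 at day 90, and their part in the results was not tested. Values are given as shares, that is back-splice reads of a gene or circRNA per 100000 back-splice reads of the library, so they describe composition and not the amount of circRNA. Where read counts are given, they are not scaled by depth. The groups held 287990 back-splice reads at day 45 and 210471 at day 90, so equal counts are a higher share at day 90. Where a feature had no read at a day, its share there could still be up to 1.04 at day 45 and 1.43 at day 90, taking 3 counts over the group as the limit, and these limits and all counting intervals cover counting error only. One library stood apart. The first day 45 replicate had a median correlation of 0.79 with the other 5 libraries, across 1124 host genes on a log2 scale, against 0.859 to 0.877 for the others. It also held the lowest share of FIRRE and the highest of ZFPM2 among the 6. Without it, 3 circRNA calls were lost and 15 of 59 named host genes, none of them called, changed the sign of their log2 change, and the values without it are given where the text turns on them.

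The 6 libraries held 40077 circRNAs of 7155 host genes. Of these circRNAs, 17722 were seen at both days, which is 56.5% of the day 45 set and 67.0% of the day 90 set, and they took up 92.0% of the day 45 reads and 94.0% of the day 90 reads. Of 6490 host genes at day 45, 83.3% were also seen at day 90. The circRNAs seen at one day alone were rare ones, with at most 27 reads over 3 libraries at day 45 and 17 at day 90.

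Few shares were called as changed between the days. Of 4933 host genes tested, 5 passed the edgeR quasi-likelihood test at an adjusted p of 0.05, all of them higher at day 90, which is 0.101% of those tested. RAPGEF5, FMN1, EYS and ANO2 among them are described here. Features were tested only with at least 10 counts over the 15 libraries. Of the genes described, EYS and ANO2 reached this filter only with the day 90 reads of the untreated and IGF-1 libraries. Their calls, and the direction of the calls as a set, carry this limit. Of 12498 circRNAs tested, 5 passed as higher at day 90 (0.04%) and 1 as lower (0.008%). Among the higher ones, circFMN1:E13-E9 also reached the filter only with such day 90 reads. An unadjusted p under 0.05 was found for 258 host genes, 118 of them higher (2.39%) and 140 lower (2.84%) at day 90. For circRNAs, 4.04% of those tested had day 90 libraries that all exceeded the day 45 libraries and 5.26% the reverse. With sequenced reads in place of back-splice totals as library sizes, the log2 change of the median host gene moved from -0.05 to -0.64, and 5 host genes were then called higher and 14 lower, and 2 circRNAs higher and 8 lower. The number of host genes called was 8 without the first day 45 replicate, 13 without the second, 8 without the third and 2 without the second day 90 replicate, and the number of circRNAs called was 18 without the second day 45 replicate. In a culture of mixed cells, fewer cells of a type and less RNA per cell cannot be told apart, and linear transcripts were not analysed here.

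The junctions of the circRNAs that carried these changes are given here from the GRCh37 genome, whose coordinates are those of hg19, with the last 15 bases of the donor exon in lower case and the first 15 bases of the acceptor exon in capitals, 5′ to 3′. All lie on the minus strand, so the acceptor is at the higher coordinate. The pairs are set side by side because they share an acceptor exon and differ in the donor.
circRAPGEF5:E6-E2, chr7:22330794-22357656: cgtctaacatctgcgACTCTATCAAGAAGA
circRAPGEF5:E5-E2, chr7:22347958-22357656: tggcatctgtgaactACTCTATCAAGAAGA
circFMN1:E4-E4, chr15:33445249-33447246: accagtcacctccagGCAGTCTCATTGCTG
circFMN1:E13-E9, chr15:33149216-33194241: agttcttccaaaaagATTTTTACATGAGTT
circFMN1:E11-E8, chr15:33180373-33194241: agaggcaactagaagATTTTTACATGAGTT
circPDE1C:E8-E4, chr7:31904556-31920473: aagacaggagtggcgATTACGGTCTTTGGT
circPDE1C:E7-E4, chr7:31912905-31920473: atcagccgtttcaagATTACGGTCTTTGGT
circEYS:E5-E3, chr6:66200487-66205886: atgagcaattttcagGTGTTTTTTGAAAAC

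Each of these acceptors is preceded by AG and each donor followed by GT in the genome, as in 99.2% of the 12493 tested circRNAs that lie on a chromosome read here. In GENCODE 44, the donor ends of all 8 and the acceptor ends of the RAPGEF5 and PDE1C circRNAs, circFMN1:E13-E9 and circFMN1:E11-E8 lie in coding sequence of at least 1 transcript. The acceptor ends of circFMN1:E4-E4 and circEYS:E5-E3 do not, and both intervals hold an annotated start codon, as do those of the RAPGEF5 pair. The exon numbers depend on the transcript, since circFMN1:E13-E9 and circFMN1:E11-E8 share the same acceptor coordinate under different numbers.

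RAPGEF5, an exchange factor that activates Rap GTPases, had 24.8, 31.2 and 22.4 back-splice reads per 100000 in the day 45 libraries and 138, 148 and 155 in the day 90 libraries. Every day 90 library was more than 4 times above every day 45 library, and the mean share went from 26.1 ± 4.54 to 147 ± 8.83 (SD, n = 3 each). The log2 change was 2.49 ± 0.30 (SE, edgeR adjusted p = 4.49e-08), and RAPGEF5 passed the test under all 16 alternative settings. The day 0 libraries, of undifferentiated cells and of lower depth, held 193, 251 and 167 per 100000, so that the day 45 shares were the lowest of the 3 days.

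Nearly all RAPGEF5 reads came from a pair of circRNAs with exon 2 as acceptor, which together with smaller forms of the same acceptor made up 99.5% of the gene's reads. circRAPGEF5:E5-E2 spans 4 exons and a spliced length of 449 bases, and circRAPGEF5:E6-E2 adds exon 6. That exon is shown because it is all that sets the pair apart, if every annotated exon between the ends is kept in the circle. It lies at chr7:22330794-22330860, is 67 bases long and is coding sequence, so its length is no multiple of a codon.
RAPGEF5 exon 6: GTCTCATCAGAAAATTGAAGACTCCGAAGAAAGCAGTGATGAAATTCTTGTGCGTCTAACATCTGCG

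circRAPGEF5:E5-E2 had shares of 18.4, 21.2 and 21.3 at day 45 and of 77.0, 90.3 and 83.5 at day 90, with a log2 change of 2.04 ± 0.35 (edgeR adjusted p = 1.32e-05). circRAPGEF5:E6-E2 had 5.51, 10.0 and 1.12 at day 45 and 51.3, 57.97 and 69.6 at day 90, with a log2 change of 3.40 ± 0.43 (edgeR adjusted p = 6.32e-11). For both circRNAs the lowest day 90 value exceeded the highest day 45 value. With sequenced reads as library sizes circRAPGEF5:E5-E2 kept its direction at a log2 change of 1.46 but no longer passed, with an edgeR adjusted p of 0.267. Of the reads of the pair, the form with exon 6 took 23.1%, 32.1% and 5.00% at day 45 and 40%, 39.1% and 45.5% at day 90. The mean difference of 21.4 percentage points had p = 0.1 in a two-sided exact permutation test, the smallest p possible. With IGF-1 the same proportion was 60%, 57.1% and 34.8% at day 45 and 39.3%, 37.3% and 32.0% at day 90, a difference of -14.4 points (exact permutation p = 0.3). The difference thus had opposite signs in the untreated and the IGF-1 libraries, and neither passed a test.

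FMN1, or formin 1, which nucleates and elongates actin filaments, had shares of 6.43, 17.8 and 22.4 at day 45 and of 86.3, 156 and 128 at day 90. The groups did not overlap, and the log2 change was 3.03 ± 0.40 (edgeR adjusted p = 8.69e-07). No read of FMN1 was found in the day 0 libraries. DESeq2's Wald test gave a log2 change of 3.04 with an adjusted p of 0.503 and so did not call it.

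Most FMN1 reads belonged to circFMN1:E4-E4, a single exon of 1998 bases joined to itself. It had shares of 4.59, 14.5 and 20.2 at day 45 and of 74.7, 117 and 82.4 at day 90, a log2 change of 2.83 ± 0.38 (edgeR adjusted p = 3.17e-10), and it too was not called by DESeq2's Wald test. It made up 83.7% of the gene's reads at day 45 (36 of 43 reads, 95% exact binomial interval 69.3 to 93.2) and 71.8% at day 90 (66.1 to 77.1). At day 45, 4 different FMN1 circRNAs were seen among 43 reads, and at day 90 12 were seen among 273 reads, so the numbers differ in depth as well. circFMN1:E13-E9 had 0, 3 and 1 reads at day 45 and 3, 11 and 24 at day 90, with a log2 change of 3.42 ± 0.76 (edgeR adjusted p = 0.0178), but it lost the call under 10 of 16 alternatives, among them the one without the first day 45 library (log2 change 2.82, edgeR adjusted p = 0.278). circFMN1:E11-E8, from the same acceptor, had 0 reads at day 45 and 2, 8 and 7 at day 90 (edgeR adjusted p = 0.082). Its day 90 share was 7.75 times that of 3 counts over the day 45 group. The 95% exact counting interval of its ratio began at 5.65.

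EYS, a secreted protein of the photoreceptor outer segment region whose loss causes retinitis pigmentosa, had 1, 2 and 3 reads at day 45 and 5, 38 and 26 at day 90, or shares of 0.918, 2.23 and 3.36 against 11.7, 51.2 and 27.8. The log2 change was 3.79 ± 0.65 (edgeR adjusted p = 0.000472). The day 90 libraries differed more than 4-fold among themselves, although each lay above all day 45 libraries. Without the second day 90 replicate the log2 change was 3.20 and the edgeR adjusted p 0.0938. All 6 day 45 reads came from circEYS:E5-E3 (100%, 95% exact binomial interval 54.1 to 100). At day 90 it held 53.6% of 69 reads (41.2 to 65.7) and 9 others, spread along the gene up to exon 26, held the rest. In the day 90 libraries circEYS:E5-E3 held 80%, 57.9% and 42.3% of 5, 38 and 26 reads. The intervals overlap, which is no test of a difference, and 6 reads at day 45 do not allow the number of forms to be compared. circEYS:E5-E3 itself had a log2 change of 2.94 ± 0.73 (edgeR adjusted p = 0.0643).

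ANO2, a calcium-activated chloride channel known from photoreceptor terminals and olfactory neurons, had 1, 0 and 1 reads at day 45 and 6, 17 and 10 at day 90, or shares of 0.918, 0 and 1.12 against 14, 22.9 and 10.7. The ratio of the summed shares was 22.6, with a 95% exact counting interval of 5.77 to 194 (edgeR adjusted p = 0.00935). The 33 day 90 reads were spread over 12 circRNAs, and the leading one, circANO2:E15-E8, held 24.2% of them. No single ANO2 circRNA passed the test. The gene lost its call without the second day 90 replicate (edgeR adjusted p = 0.123) and under DESeq2's Wald test (adjusted p = 0.150).

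**Figure D1:**
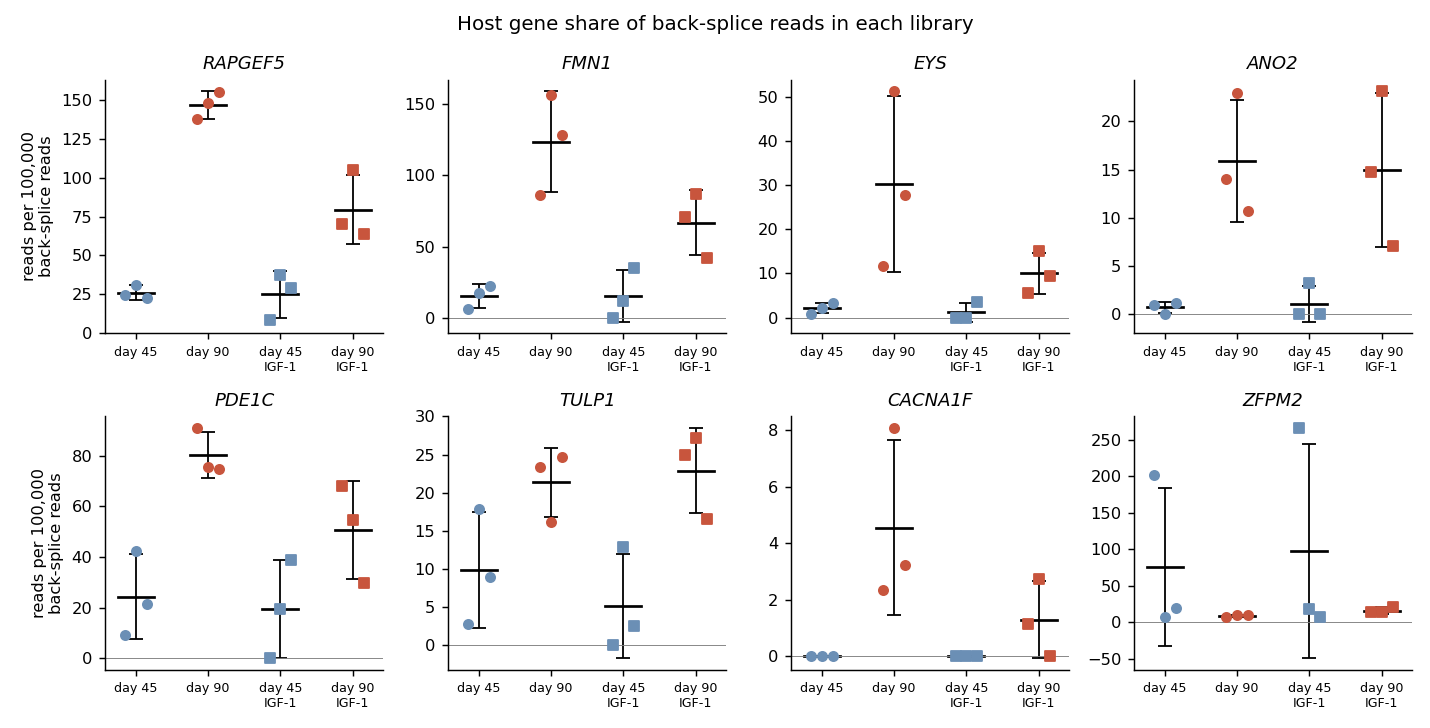
Back-splice reads per 100000 of the library for 8 host genes, with each panel on its own linear axis, circles for the 6 untreated and squares for the 6 IGF-1 libraries, blue for day 45 and red for day 90, and lines for the mean with bars of 1 SD (n = 3). RAPGEF5, FMN1, EYS, ANO2, PDE1C and CACNA1F have all untreated day 90 libraries above all untreated day 45 libraries, TULP1 overlaps between the days, and ZFPM2 is high in the first replicate of both day 45 groups.

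PDE1C, a calmodulin-dependent cyclic nucleotide phosphodiesterase, lay just outside the threshold as a gene. It had shares of 9.18, 42.3 and 21.3 at day 45 and of 91.0, 75.5 and 74.9 at day 90, a log2 change of 1.74 ± 0.41 (edgeR adjusted p = 0.0571). Its circPDE1C:E8-E4 lay just inside, with 0, 11 and 2 reads at day 45 and 16, 12 and 21 at day 90 (log2 change 2.35 ± 0.55, edgeR adjusted p = 0.0418), and lost the call under 10 of 16 alternatives, with a log2 change of 1.71 (edgeR adjusted p = 0.8503) without the first day 45 library. The more abundant circPDE1C:E7-E4, of 4 exons from the same acceptor, went from 47 reads to 98. The exon 8 form was 19.4% of the gene's reads at day 45 (95% exact binomial interval 10.8 to 30.9) and 29.7% at day 90 (22.9 to 37.3), intervals that overlap.

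ZFPM2, a cofactor of GATA transcription factors, gave the only circRNA called lower at day 90, and that call rested on 1 library. circZFPM2:E3-E2 had 190 reads in the first day 45 library, 6 and 15 in the other day 45 libraries, and 3, 6 and 7 at day 90. The log2 change was -3.12 ± 0.42 (edgeR adjusted p = 8.81e-10), and without the first day 45 replicate it was -0.62 with an edgeR adjusted p of 0.994. The first day 45 IGF-1 library was likewise high, with 147 reads against 13 and 6. The gene ZFPM2 itself lay outside the threshold (edgeR adjusted p = 0.0836). The circRNAs just outside the threshold were circZFX:E3-E3, with 14, 0 and 13 reads at day 45 and none at day 90, and circREEP1:E5-E3, with 20, 0 and 6 reads at day 45 and none at day 90, each with an edgeR adjusted p of 0.0532 and each with a day 45 library at 0.

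**Figure D2:**
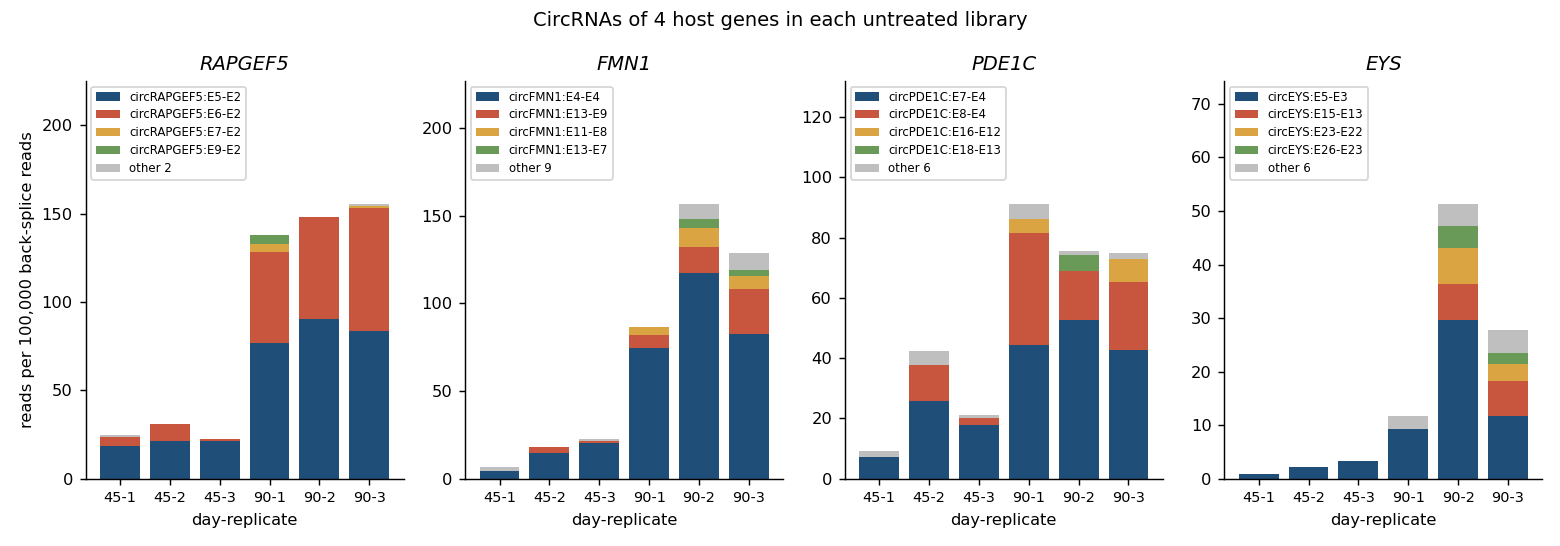
Back-splice reads per 100000 of the library for the circRNAs of RAPGEF5, FMN1, PDE1C and EYS in the 6 untreated libraries (horizontal axis, day and replicate), stacked by circRNA with the 4 most abundant named and the others summed, on a linear axis from 0 that differs between panels. In RAPGEF5 and PDE1C both leading circRNAs share an acceptor and are higher at day 90, FMN1 is mostly circFMN1:E4-E4 in all 6 libraries, and EYS shows 1 circRNA among 6 reads at day 45 and 10 among 69 reads at day 90, a difference in depth that does not allow the forms to be compared.

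The choice of circRNA within a host gene was tested next, as the share of each circRNA against the rest of its gene. Of 2396 host genes with at least 2 circRNAs tested, 0 passed edgeR's Simes-adjusted diffSpliceDGE test (0%), with 40 genes and 267 of 10563 circRNAs at an unadjusted p under 0.05, and 0 were called under all 14 alternatives run for this test. RAPGEF5 had an unadjusted p of 0.118, EYS of 0.344, ANO2 of 0.354 and FMN1 of 0.494, and no shift between their circRNAs was called. The circRNAs of MGA and SYT1 were chosen after their values were seen. The lowest p of a circRNA belonged to circMGA:E9-E2, with 8, 0 and 13 reads at day 45 and none at day 90, while MGA as a whole had 514 and 318 reads. circSYT1:E5-E2, from the synaptic vesicle calcium sensor SYT1, had 0 reads of 53 at day 45 and 12 of 49 at day 90 (edgeR unadjusted p = 0.00259, adjusted p = 1).

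The gene lists were read by their counts and medians, set beside those of all tested host genes, of which 4.78% had every day 90 library above every day 45 library, 5.90% had the opposite, and the median log2 change was -0.05. In the photoreceptor list, 9 of 30 genes had back-splice reads and 8 were tested. Of these, 7 had a log2 change above 0 and 1 below, 1 was called (EYS), 4 had all day 90 libraries above all day 45 libraries, and the median log2 change was 1.43. EYS, CNGB3 and CACNA1F, which are among those 4, reached the filter of 10 counts over 15 libraries only with the day 90 reads of the untreated and IGF-1 libraries. ABCA4, the member below 0, did so as well. The entry of EYS, CNGB3 and CACNA1F among the tested members thus depended on high day 90 counts, and the counts and the median of the list carry this limit. The list's summed share was 6.43, 32.3 and 21.3 per 100000 at day 45 and 60.7, 93.0 and 84.6 at day 90, without overlap, and it was 0 in all day 0 libraries. Without EYS the sums were 5.51, 30.1 and 17.9 against 49.0, 41.8 and 56.7. The ratio of the means was 3.97 for the whole list, 2.96 without the first day 45 library, 2.76 without EYS and 2.05 without both.

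Within that list, CNGB3, a subunit of the cone photoreceptor channel, had 0, 0 and 1 reads at day 45 and 4, 3 and 7 at day 90 (ratio 19.2, 95% exact counting interval 2.92 to 810, edgeR adjusted p = 0.482). CACNA1F, the calcium channel of the photoreceptor synapse, had 0 reads at day 45 and 1, 6 and 3 at day 90 (edgeR adjusted p = 0.482). Its day 90 share was 4.56 times that of 3 counts over the day 45 group. The 95% exact counting interval of its ratio began at 3.07. IMPG2, a proteoglycan of the matrix around photoreceptors, had 3, 1 and 3 reads and then 5, 6 and 6, and its shares did not overlap (log2 change 1.72 ± 0.82, edgeR adjusted p = 0.915). TULP1, needed for protein traffic in photoreceptors, had 3, 16 and 8 reads and then 10, 12 and 23, with overlapping shares (log2 change 1.14 ± 0.52, edgeR adjusted p = 0.915). CRB1 had a log2 change of 0.87 and RORB of 0.53 (-0.07 without the first day 45 library), both with overlap, and ABCA4, with 4 reads at day 45 and 2 at day 90, was the member below 0. The defining photoreceptor genes CRX, RCVRN, NRL, NR2E3, GNAT1 and ARR3 had no back-splice read in the 6 libraries, so the list rests on genes that form circRNAs. How far the called genes follow a change in the cell types present was not tested.

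The cell cycle and DNA replication list showed the opposite balance. Of 30 tested members, 21 had a log2 change below 0 and 9 above, 8 had all day 90 libraries below all day 45 libraries and 1 the reverse, and the median log2 change was -0.39. None passed the edgeR test, and none had an unadjusted p under 0.05. The summed share of the list was 249.7, 277 and 273 at day 45 and 175, 214 and 209.8 at day 90, without overlap. CCNB1, the cyclin of mitotic entry, had shares of 32.1, 39.0 and 33.6 and then 23.3, 14.8 and 29.97 (log2 change -0.60 ± 0.34, edgeR adjusted p = 0.970). BRIP1, a helicase of DNA repair, had 19.3, 25.6 and 19.04 and then 16.3, 10.8 and 11.8 (log2 change -0.76 ± 0.44), whereas the shares of ATAD2 and POLE2 overlapped, with log2 changes of -0.35 and -0.06. NCAPG, a condensin subunit, KIF18A, a mitotic kinesin, and POLA1, of the primase complex, were chosen after their values were seen and had log2 changes of -1.18, -1.02 and -0.67 without overlap. The members named here all lay below 0, and the 9 above 0 are not named.

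**Figure D3:**
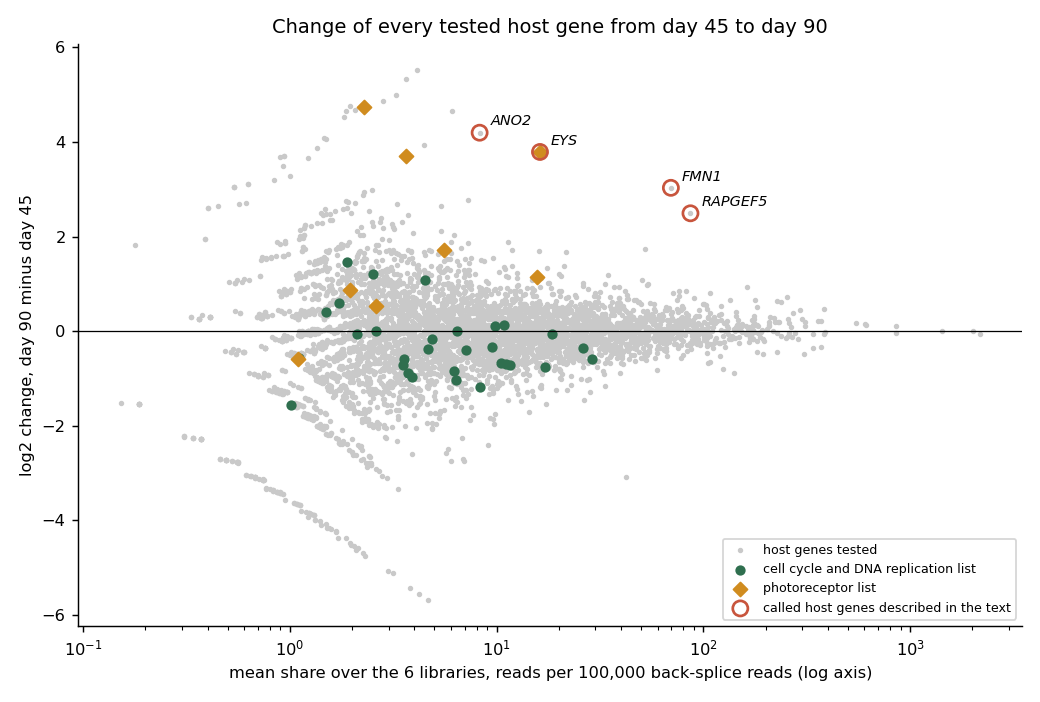
Log2 change from day 45 to day 90 (vertical axis) against the mean share over the 6 libraries (horizontal log axis) for each tested host gene in grey, with the photoreceptor list as diamonds, the cell cycle list as green points and RAPGEF5, FMN1, EYS and ANO2 circled. The circled genes lie above 2, 7 of 8 photoreceptor genes above 0 and 21 of 30 cell cycle genes below 0, and fitted changes of genes with no read at one day depend on the prior count and form the outer bands.

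The other retinal lists held few tested members and no call. In the list of retinal progenitor and eye field genes, 4 of 24 were tested, 4 of 4 lay above 0 at a median of 0.15 (-0.33 with sequenced reads as library sizes, where the median of all genes was -0.64, and -0.29 without the first day 45 library), and the summed share was 49.3 ± 18.5 at day 45 and 55.7 ± 25.97 at day 90 (SD, n = 3). DACH1, a transcriptional cofactor of the eye field, supplied most of these reads, with shares of 22.03, 47.9 and 37.0 and then 23.3, 49.9 and 37.5. EYA1, MEIS1 and EYA2, transcriptional regulators of early eye development, had 14, 14 and 9 reads at day 45 and 20, 11 and 8 at day 90, with overlap, and 19 of the 20 EYA1 reads at day 90 came from the second library. PAX6, RAX, SIX3, SIX6 and OTX2 had no back-splice read. The retinal pigment epithelium list had 5 of 16 genes tested at a median of 0.11 (-0.43 with sequenced reads and -0.50 without the first day 45 library), and its summed share was 25.3 ± 2.74 at day 45 and 19.99 ± 7.27 at day 90. OCA2, of the melanosome, had 22, 9 and 10 reads and then 3, 3 and 8, with shares that did not overlap (log2 change -1.06 ± 0.59, edgeR adjusted p = 0.970), and MITF, RPE65, TYRP1 and PMEL had none. MERTK, the receptor for phagocytosis of outer segments, had 17 reads and then 12, DCT, of melanin synthesis, 5 and then 10, and TRPM1, a cation channel also listed for bipolar cells, 4 and then 3, all with overlap.

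For ganglion cells 3 of 18 listed genes were tested (median -0.93), and 2 of those 3 had at most 3 reads at either day. They were STMN2 (8 reads at day 45 and 7 at day 90, log2 change 0.16), ELAVL3 (3 and 1) and EBF3 (3 and 0). For amacrine and horizontal cells 3 of 15 were tested (median 1.40), for bipolar cells 2 of 10 (median -0.52) and for Mueller glia 2 of 13 (median 0.43, and -0.01 with sequenced reads). The amacrine and horizontal cell genes were GAD1 (6 reads at each day, log2 change 0.43), PROX1 (3 and 7) and SLC6A9 (3 and 7, the 7 all from 1 library). Of the bipolar list, PRKCA had 18 reads and then 5. Of the Mueller list, CRYM had 6 and then 7 and CLU 4 at each day (log2 change 0.37 for CLU). The 4 lists had summed shares under 15 in all 6 libraries and no member with groups that did not overlap. Of the lists for other tissues, brain glia had 1 tested gene (PDGFRA, log2 change 1.14, 2 reads at day 45 and 4 at day 90), lens and surface epithelium 2 (EPCAM with 8 and then 6 reads and GRHL2 with 4 and then 3, median -0.01) and mesenchyme and muscle none, and their summed shares per library were 0 to 3.34, 0 to 10.0 and 0 to 7. In the pluripotency list 2 of 16 were tested, JARID2 with shares of 6.43 to 11.1 at day 45 and 5.35 to 11.7 at day 90, and TERF1 with 1 and 4 reads, and POU5F1, SOX2 and NANOG had no back-splice read.

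Among synapse genes, 30 of 45 were tested, 15 on either side of 0, with a median of 0.00 (-0.63 with sequenced reads). RIMS2, which organises the active zone of the synapse and is itself a well-known circRNA host, had shares of 22.95, 44.6 and 98.6 at day 45 and 77.0, 132 and 83.5 at day 90 (log2 change 0.84 ± 0.33, edgeR adjusted p = 0.689), and ERC1, STXBP5 and HOMER1 had log2 changes of -0.22, 0.29 and -0.03, of which those of ERC1 and HOMER1 became 0.12 and 0.37 without the first day 45 library. Of the factors known to act on circRNA formation, 6 of 24 were tested at a median of -0.20, 3 on either side of 0. QKI, a splicing regulator that promotes circularisation, had shares of 103, 56.8 and 77.3 and then 95.7, 90.3 and 76.0. ADARB1, an RNA editing enzyme, had a log2 change of 0.12 (-0.11 without the first day 45 library) and PTBP2, a neuronal splicing repressor, of 0.31. CELF1, an RNA-binding splicing regulator, had shares of 9.18, 8.91 and 8.96 and then 7, 8.09 and 4.28, all lower at day 90 (log2 change -0.51, edgeR adjusted p = 1). DHX9, a helicase that unwinds paired RNA, was chosen after its values were seen, as the member with an unadjusted p under 0.05, and had a log2 change of -2.65 from 13 reads in all, with overlap (edgeR adjusted p = 0.915). These values concern their circRNAs and not their protein. Relative to the median of all host genes, no list of 5 or more tested members changed sign between back-splice totals, TMM, DESeq2 size factors and sequenced reads.

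**Figure D4:**
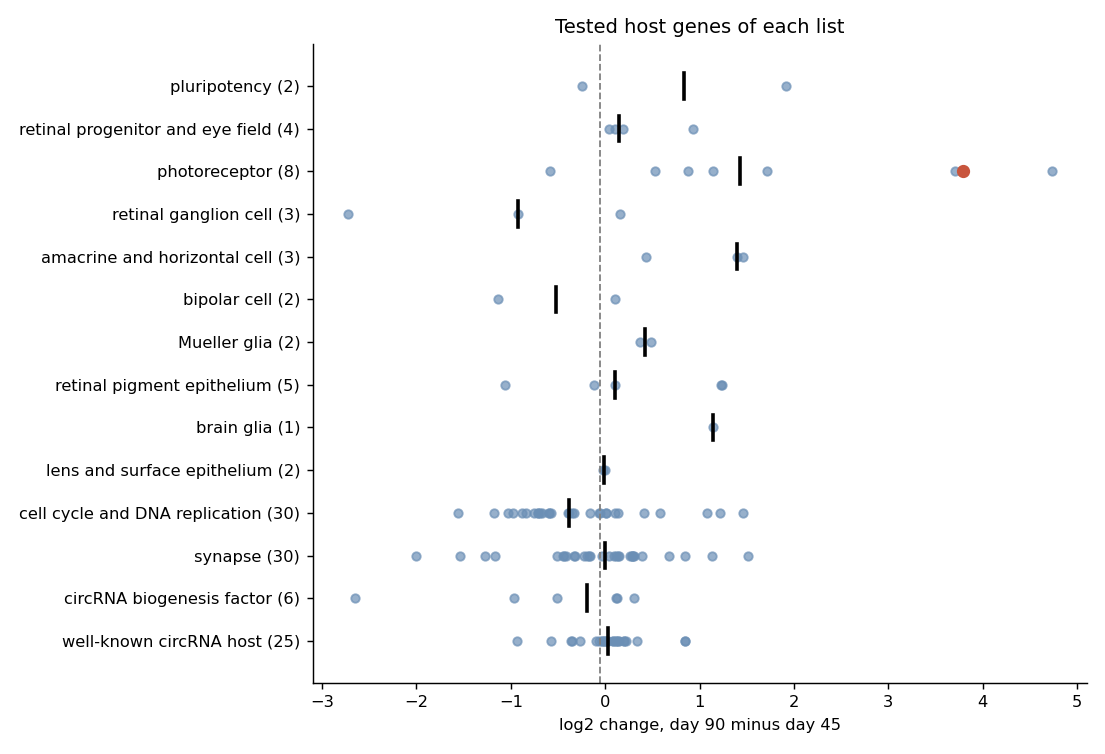
Log2 change from day 45 to day 90 of each tested member (points) of 14 gene lists, with the number tested in brackets, the list median as a black bar, the median of all host genes as a dashed line and the called gene in red. The photoreceptor median is at 1.43 and the cell cycle median at -0.39, while the synapse and well-known circRNA host lists centre near 0.

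None of the 10 host genes with the most reads was called. MAN1A2, a mannosidase of the Golgi, had a mean share of 2212 ± 212 at day 45 and 2120 ± 179 at day 90 (log2 change -0.06 ± 0.20), and SMARCA5, a chromatin remodelling ATPase, had 1426 ± 46.0 and 1419 ± 217 (log2 change -0.01 ± 0.19). RERE, MSANTD3-TMEFF1, ATRNL1, HIPK3, STK39 and EXOC6B had log2 changes between -0.04 and 0.16, and those of SMARCA5, RERE and EXOC6B became 0.01, 0.08 and 0.14 without the first day 45 library. XPO1, the nuclear export receptor, had shares of 509, 367 and 369 at day 45 and of 310, 309 and 361 at day 90, which did not overlap (log2 change -0.34 ± 0.22, edgeR adjusted p = 1). Among the 5 leading circRNAs, circSMARCA5:E16-E15 had a log2 change of -0.01, circMAN1A2:E5-E2 of 0.03, circMSANTD3-TMEFF1:E5-E2 of 0.15 and circRERE:E6-E4 of -0.13 (0.02 without that library).

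The lncRNA RMST, a regulator of neurogenesis, varied widely within each day, with shares of 739.8, 2194 and 3127 at day 45 and 1330, 2847 and 1899 at day 90 (log2 change 0.01 ± 0.25). Without the first day 45 library the day 45 mean went from 2020 to 2660 and the log2 change to -0.39 (edgeR adjusted p = 0.997). circRMST:E12-E6 made up 96.9% to 98.9% of the gene's back-splice reads in each of the 6 libraries. The lncRNA FIRRE, which takes part in the organisation of chromosome domains, had shares of 17.4, 229 and 221 at day 45 and of 135, 213 and 152 at day 90 (log2 change 0.12 ± 0.39). Its log2 change was -0.42 without the first day 45 library (edgeR adjusted p = 0.997), so that for both genes the direction rested on that library. circFIRRE:E10-E5 made up 81.7% to 94.7% of its reads. In both genes the lowest value of the 6 was that of the first day 45 library.

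Of 9 measures of the reads as a whole, none passed an exact permutation test between the days, as 3 libraries against 3 cannot go below 0.1. At a common depth of 42858 reads, 12196, 11924 and 12042 distinct circRNAs were expected at day 45 and 11183, 11849 and 11794 at day 90, which did not overlap (exact permutation p = 0.1, adjusted p = 0.9 over 9 measures). At a common depth of 42680 reads with a host gene, the number of host genes was 4282 ± 79.5 and 4203 ± 96.2 (p = 0.4). Exon 2 was the acceptor in 36.8% ± 0.27 of reads at day 45 and 36.7% ± 0.51 at day 90, and single-exon circRNAs made up 7.01% ± 1.21 and 7.03% ± 0.52. The 10 leading host genes held 9.92% ± 1.01 and 10.0% ± 0.60 of reads, and non-coding hosts 2.60% ± 1.35 and 2.67% ± 0.84. Reads came from circRNAs of 3.88 ± 0.06 and 3.93 ± 0.11 exons on average, with a spliced length of 591 ± 33.8 and 595 ± 35.4 bases and a median genomic span of 8194 ± 312 and 8552 ± 545 bases. By exon number, the median log2 change of the tested circRNAs was 0.03 for 1 exon, -0.10 for 2, -0.06 for 3, -0.03 for 4 to 5, -0.01 for 6 to 10 and 0.09 for 11 or more.

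The IGF-1 libraries share no library with the untreated comparison and gave the changes in a second set of cultures, although a shared fit estimated the spread and the same replicate numbers may mark cultures plated together. The first untreated day 45 library correlated at 0.829 with the first day 45 IGF-1 library, against 0.800 and 0.803 with its own group. In these first libraries the untreated and IGF-1 shares were 6.43 and 0 for FMN1, 9.18 and 0 for PDE1C and 17.4 and 23.1 for FIRRE. For RMST they were 739.8 and 2660. Shared plating was not tested, and the IGF-1 changes were not computed without that IGF-1 library. RAPGEF5 went from 8.26, 37.6 and 29.1 at day 45 to 70.1, 105 and 63.8 at day 90 with IGF-1 (log2 change 1.59 ± 0.31, edgeR adjusted p = 0.00673). Of its pair, circRAPGEF5:E5-E2 was also called with IGF-1 (log2 change 1.86 ± 0.38, edgeR adjusted p = 0.00351). circRAPGEF5:E6-E2 was not called with IGF-1 and its shares overlapped (log2 change 1.12 ± 0.41, edgeR adjusted p = 0.777). The difference between the series was not called for circRAPGEF5:E6-E2 (edgeR adjusted p = 0.319). FMN1 went from 0, 11.8 and 35.2 to 71.3, 87.1 and 42.5 with IGF-1 (log2 change 2.00 ± 0.42, edgeR adjusted p = 0.0187). EYS went from 0, 0 and 3 reads to 5, 11 and 8 (edgeR adjusted p = 0.347) and ANO2 from 0, 3 and 0 to 13, 17 and 6 (edgeR adjusted p = 0.0889), with groups that did not overlap and without a call. With IGF-1, 4 host genes were called higher at day 90 (0.0811%) and none lower, and 4 circRNAs were called higher (0.032%) and 3 lower (0.024%). The lower ones were circZFPM2:E3-E2 (147, 13 and 6 reads and then 11, 9 and 17), circVCAN:E8-E8 (89, 12 and 16 and then 13, 15 and 6) and circCLIP1:E8-E6 (14, 4 and 0 and then 0), each with most of its day 45 reads in the first IGF-1 library.

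The photoreceptor list had a median log2 change of 1.55 with IGF-1 (1.43 without) and the cell cycle list of -0.72 (-0.39 without). Other lists differed in sign between the series, with -1.73 with IGF-1 and 1.40 without for amacrine and horizontal cells, 0.45 and -0.52 for bipolar cells, -0.14 and 0.43 for Mueller glia, 0.52 and -0.01 for lens and surface epithelium and -0.07 and 0.03 for well-known circRNA hosts. The first 4, of 2 or 3 tested genes each, hold few reads, and no difference between the series was tested for a list.

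Of the 118 host genes higher at day 90 at an unadjusted p under 0.05, 37 (31.4%) were also higher at that level with IGF-1, where 2.94% of all tested host genes were, and 2 were lower. Of the 140 lower host genes, 8 (5.71%) were also lower with IGF-1, where 2.74% of all were, and 3 were higher. The 37 are 25.5% and the 8 are 5.93% of the host genes at that level with IGF-1. Whether higher and lower genes differ in this was not tested. The difference between the changes with and without IGF-1 was called for 0 host genes by edgeR, with 175 at an unadjusted p under 0.05, and for 1 circRNA.

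Of the 45 host genes that passed this level in both series, those named here were chosen after their values were seen. Their untreated edgeR adjusted p ran from 0.131 for PDC to 0.833 for CDCA7, so none was called. Whether genes known from neurons or the retina are frequent among the 45 was not tested. PDC, or phosducin, which binds transducin in photoreceptors, had 0 reads at day 45 and 4, 5 and 8 at day 90. With IGF-1 it had 0 and then 7, 0 and 4 reads. Its untreated day 90 share was 7.75 times that of 3 counts over the day 45 group. The 95% exact counting interval of the untreated ratio between the days began at 5.65. All PDC reads came from circPDC:E3-E2. TRPC1, a cation channel, had shares of 52.3, 161.5 and 119.9 and then 238, 173.9 and 226.9 (log2 change 0.94, with IGF-1 0.60), and RELN, or reelin, a matrix protein that guides neurons, had shares of 25.7, 42.3 and 41.45 and then 51.3, 86.3 and 72.8 (log2 change 0.98, with IGF-1 0.88). SEMA3C, a secreted guidance cue, had log2 changes of 1.68 and 1.04. Among the 8 lower genes, FAT3, a cadherin of retinal amacrine cells, had shares of 86.3, 154.8 and 235 and then 93.3, 91.7 and 87.8, which overlapped (log2 change -0.80, with IGF-1 -0.90), and CDCA7, a cell division gene, had 6, 3 and 3 reads and then 0, 0 and 1. VCAN, a matrix proteoglycan, had log2 changes of -1.30 and -1.69.

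**Figure D5:**
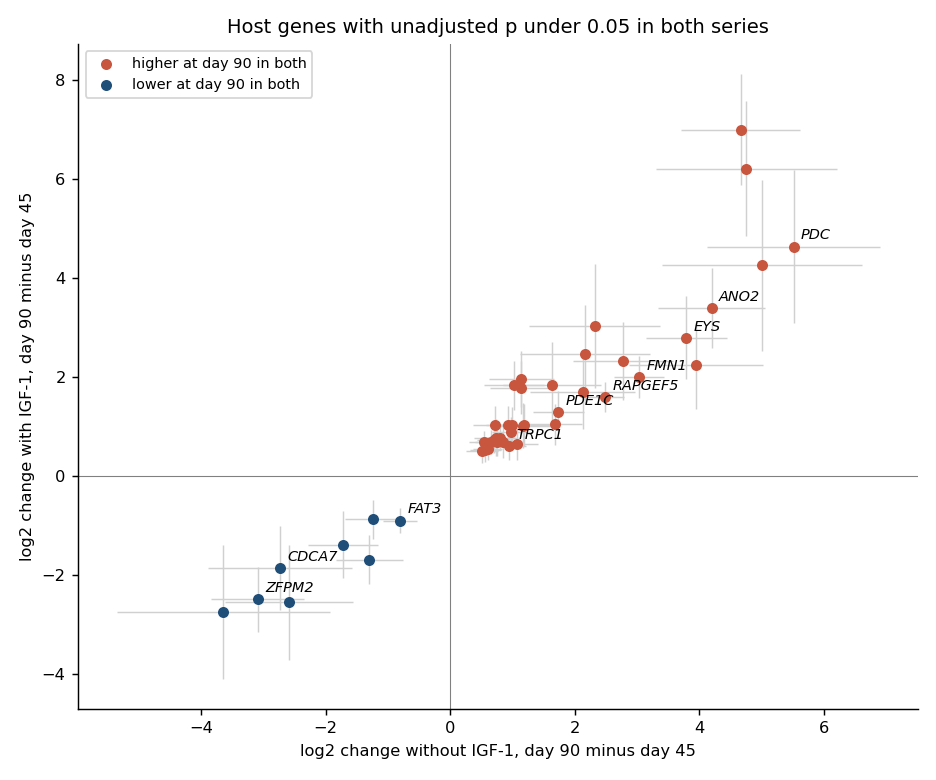
Log2 change from day 45 to day 90 with IGF-1 (vertical axis) against that without IGF-1 (horizontal axis) for the 45 host genes at an unadjusted p under 0.05 and of the same sign in both series, with bars of 1 SE, red for the 37 higher and blue for the 8 lower at day 90. Points were chosen for the same sign on both axes, so the empty quadrants follow from the choice, and PDC, ANO2, EYS, FMN1 and RAPGEF5 lie among the larger changes on both axes.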

How the data were processed

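Total RNA of H9 cultures was depleted of ribosomal RNA and sequenced by the authors as stranded paired reads of 100 bases. Back-splice junctions were identified by the authors in every library with PTESFinder (hg19, GENCODE), and the deposited values are raw read counts per circRNA and library with their sum. The labels also list tools of other steps (TopHat2 2.0.10, HTSeq 0.6.1, bedtools 2.17, FastQC 0.10), whose output was not used here. Library names ending in a, b and c were read as replicates 1, 2 and 3, and 0 columns of other samples were left out. Of 55371 circRNAs, 48401 took their host gene from the named transcript and 6744 from their exon ends (GENCODE 44 on GRCh37), and 187 with several genes and 39 with none were left out of gene values.

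Counts of circRNAs and summed counts of host genes, with at least 10 counts over 15 libraries, were fitted in edgeR 4.0.16 (R 4.3.3; glmQLFit and glmQLFTest, 1 mean per condition) scaled by back-splice totals. The Benjamini-Hochberg adjustment was applied over all features, with 0.05 as threshold, and standard errors came from the log2 change and F. Usage within genes was tested with diffSpliceDGE. For library measures, exact permutation tests (two-sided) were used (Python 3.11.15, numpy 2.4.6, scipy 1.17.1, pandas 2.3.3). Alternatives were TMM, DESeq2 1.42.0 size factors and Wald test, sequenced reads as library sizes (day 90 replicates 1 and 2 averaged because their labels do not tell them apart), other filters, the replicate block, the 6 libraries alone, Fisher's exact test on summed counts and leaving out libraries. Counts were also simulated for 12498 circRNAs and 4933 host genes, with 4-fold and 8-fold changes in 200 features of each. The changed features were drawn only from those above a minimum expected count per library. Of them, edgeR found 59% and 92% of the changed circRNAs and 79% and 93% of the changed host genes. Of the calls, 0.66% and 2.27% were false. How often changes of features with fewer reads are found was not simulated.

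The comparison and the gene lists were chosen with earlier results of these data known. Named features are those called, the 10 leading host genes, the 5 leading circRNAs, the 4 members of each list with the most reads and all tested photoreceptor genes, RMST, FIRRE and the features next to the threshold. Features named outside this rule (circFMN1:E11-E8, PDC and others) were chosen after their values were seen. The results of 1 called host gene are not reported here.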

Additional observations from a re-analysis of the deposited data

Results flagged for a closer look

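circTBL1X:E11-E8, from the host gene of a transcriptional corepressor subunit, was singled out because its change from day 45 to day 90 differed between the cultures with and without IGF-1. It had 0 reads in the 3 untreated day 45 libraries and 4, 3 and 8 at day 90, and with IGF-1 0, 7 and 2 reads at day 45 and 0 at day 90. The fitted difference of the log2 changes was -9.71 (edgeR adjusted p = 0.0465), a value that depends on the prior count since a group of each series has no read. It was the only circRNA called among 12498, and 0 were called with TMM, with sequenced reads as library sizes, with at least 10 counts over the 6 untreated libraries, with the replicate block or without a filter. With one library left out, 0 to 2 circRNAs were called.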

How the results depend on the processing

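The number of circRNAs called was 6 and became 10 with sequenced reads as library sizes, 3 with at least 10 counts over the 6 libraries, 18 with the 6 libraries alone, 2 with DESeq2's Wald test, 152 with Fisher's exact test on summed counts and 4 to 18 with one library left out. The number of host genes called was 5 and became 19 with sequenced reads, 8 without a filter, 8 without replicate 1 of both days (chosen after seeing the data), 2 with the Wald test, 167 with Fisher's test and 2 to 13 with one library left out. Calls of usage stayed at 0. The circRNA with a different change under IGF-1 went from 1 to 0 under TMM, sequenced reads, the stricter filter and the replicate block, and the cause of these shifts was not tested.

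With the replicate block 9 host genes and 5 circRNAs were called. The numbers were not taken as pairs between the days, since deviations of same-numbered untreated libraries of day 45 and day 90 correlated at 0.11, -0.20 and -0.06 over 978 host genes.

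Measures of read structure, none past the threshold, changed sign as follows. The difference in reads with exon 2 as acceptor, -0.03 percentage points, became 0.356 for circRNAs with at least 2 counts and 0.324 with each circRNA counted once, and single-exon reads went from 0.0158 to -0.0231 points without the 10 leading circRNAs. Mean exon number went from 0.0496 to -0.0426 and spliced length from 4.65 to -4.12 bases with each circRNA counted once. With one library left out the ranges were -0.318 to 0.151 points for exon 2, -0.634 to 0.566 for single exons, -0.378 to 0.628 for the 10 leading host genes, -0.662 to 0.669 for non-coding hosts and -14.1 to 23.9 bases for spliced length. Of the called features RAPGEF5 and circRAPGEF5:E6-E2 passed under 16 of 16 alternatives, and no called feature changed sign. Depth limits rare circRNAs most, since 3 reads are a share of 7 in the shallowest library and 2.75 in the deepest.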

Other observations

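The genes named here were chosen after their values were seen. Of 2482 host genes with at least 10 reads in 1 or more of the 6 libraries, 2 had no read in the other 5. ZNF480, a zinc finger gene, had 25 reads of circZNF480:E4-E3 in the third day 45 library and 0 in the other 14 of the series. ZNF254 had 14, 0 and 11 reads at day 45 and ZNF880 14, 9 and 0, and both had none at day 90 or with IGF-1. MB, which encodes myoglobin, had 0 reads at day 45, 0, 0 and 11 at day 90 and, with IGF-1, 0 at day 45 and 9, 7 and 17 at day 90 (log2 change 6.21 with IGF-1, edgeR adjusted p = 0.0361).

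Of 23 chromosomes, 3 had shares of back-splice reads that were higher at day 90 without overlap and 0 had lower ones. Back-splice reads of chromosome 13 made up 2.54%, 2.69% and 2.65% of the day 45 libraries and 2.70%, 2.90% and 2.91% of the day 90 libraries. On chromosome 7 the difference of the means was 0.23 percentage points, and 0.0529 with overlapping groups without RAPGEF5 and PDE1C. On chromosome 15 it was 0.135 points, and 0.0272 with overlapping groups without FMN1. No test was made.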
